A study of Mus musculus with 22 samples.

Results

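Plasma-activated medium (PAM) is culture medium that has been exposed to a cold atmospheric plasma, an ionized helium gas at low temperature, with no cells present. The comparison described here is that of organoids given PAM from day 2 after replating (PAM 2d) with organoids given PAM from day 1 (PAM 1d). It takes the 6 PAM libraries of the series, 3 in each group, out of 22 libraries in all, and pairs them by organoid line, since lines CD1, WT2 and 2 were each used once in both groups. The 4 untreated libraries (labelled as lines CD1, WT2, 2 and 1) are given as background, and the 6 libraries of organoids given medium taken from plasma-treated cultures (indirect CAP), in the same lines and from the same days, are used for 1 comparison below.

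The organoids were grown from the duodenum of adult CD1-outbred mice aged 2 months, and each line came from 1 mouse, so that a line is 1 animal. Lines CD1 and WT2 were from males and lines 1 and 2 from females. The labels give passage 12 for line CD1, 14 for line WT2 and 4 for lines 1 and 2. The study lists a lower passage for its female lines of this experiment. Sex and passage therefore change together between line 2 and the other PAM lines and cannot be told apart. All groups grew in Matrigel with EGF, Noggin, R-spondin 1 and N-acetyl cysteine, the last of which is itself an antioxidant, and with Y-27632 for the first 2 days. In PAM 1d the medium was used fresh at day 1 and replaced by normal medium at day 2. In PAM 2d the medium made at day 1 was kept until day 2 and then stayed on the organoids until the endpoint at day 3. The deposited labels give an exposure of 30 min for PAM 1d and 24 h for PAM 2d, whereas the study's methods give 24 h for both. Start day, age of the medium, labelled exposure, and a day of recovery in PAM 1d against none in PAM 2d therefore change together and cannot be told apart. The untreated libraries are 1 group for both start days.

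Plasma leaves long-lived oxidants such as hydrogen peroxide, nitrite and nitrate in a liquid. In the small intestine, stem cells at the crypt base divide under Wnt signalling and give rise to absorptive enterocytes and to secretory Paneth, goblet, enteroendocrine and tuft cells. Cells under stress can slow protein synthesis and translate the transcription factor ATF4 instead, which induces genes of amino acid supply and stress signalling, while cells that divide express the genes of DNA replication and of mitosis in waves set by E2F factors and by the DREAM and B-MYB complexes. An injured intestinal epithelium can also turn on genes of the fetal gut, such as Ly6a, Clu and Anxa1.

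Values appear to be read counts that the authors scaled to about 20 M per library and rounded, and are called scaled values below. The study's legends describe the unit as per kilobase of transcript, but no division by gene length was seen. Every library sums to about 20 M. Low values were spaced like whole counts times 1 factor per library, which was unresolved for PAM 2d of line CD1. Scaled values are given in the order CD1, WT2 and 2. A log2 difference is PAM 2d minus PAM 1d on log2(scaled value + 1), averaged over the 3 lines, with its standard error (SE). A gene was called, and is said to have risen or fallen, where the Benjamini-Hochberg adjusted p of limma's moderated test with the line as a block was under 0.05 over all 17354 genes tested.

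The depth recovered from the spacing of low values was 22.9 to 28.4 M reads in PAM 1d, and 21.7 and 23.6 M in 2 of the PAM 2d libraries, and could not be resolved for PAM 2d of line CD1. Mitochondrial transcripts took 0.79 to 1.02% of each PAM 1d library, 0.67 to 0.88% of each PAM 2d library and 1.24 to 1.54% of each untreated one. The 6 epithelial marker genes summed to 128634 to 135139 in PAM 1d and 102311 to 146623 in PAM 2d. Markers of fibroblasts and smooth muscle (9 genes) summed to 12 to 29 and 26 to 37, of endothelium (5) to 51 to 115 and 28 to 55, of immune cells (6) to 65 to 102 and 47 to 103, and of neurons and glia (5) to 16 to 49 and 27 to 41. Lum, Dcn and Elavl4 were at 0 in all 6 PAM libraries. Of these 4 lists only 2 endothelial, 1 immune and 1 neural gene passed the filter, and 0 of fibroblasts and smooth muscle. None of the genes tested was called, which says little about the lists because most members were too low to test. Xist and Y-linked genes matched the labelled sex of every PAM library, and the Y-linked Kdm5d (625 and 648 in line CD1, 191 and 186 in line WT2) was alike in the PAM libraries of a line. It stood at 137 in the untreated library labelled CD1 and at 546 in that labelled WT2, so that untreated libraries are used here as an unpaired group only.

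More genes fell than rose. Of the 17354 genes, 626 rose (3.61%) and 1213 fell (6.99%) in PAM 2d relative to PAM 1d, and of these 320 and 657 differed by 1 or more on the log2 scale. The shares of 3.61% and 6.99% are the background for every count of called list members below. The median over all genes was -0.02. Groups did not overlap, every PAM 2d library lying above or below every PAM 1d library, for 2820 genes on the higher side (16.2%) and 2940 on the lower side (16.9%), and for 1674 of the 1839 called genes. The difference had 1 sign in all 3 lines for 9827 genes (56.6%). Calls were close to the threshold, with a smallest adjusted p of 0.0198, while 5947 genes had an unadjusted p under 0.05. No gene was called without the block (4651 at an unadjusted p under 0.05, smallest adjusted p 0.0503), and none without line WT2 (2413 and 0.251), where all 1762 called genes that could still be tested kept their direction. These genes were called on data that include the remaining lines, so the kept direction is no independent support. Leaving out line CD1 gave 579 rises and 973 falls, and leaving out line 2 gave 799 and 1375. When the spread was estimated over all 18 treated libraries of the 3 lines, 2895 of 19206 genes rose (15.1%) and 3796 fell (19.8%), among them 1838 of the 1839. That fit takes its log2 differences from the same PAM libraries, so that only the estimated spread, and no direction, could change. In that fit, 869 rose and 1691 fell without line WT2, an alternative chosen after seeing the data.

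**Figure D1:**
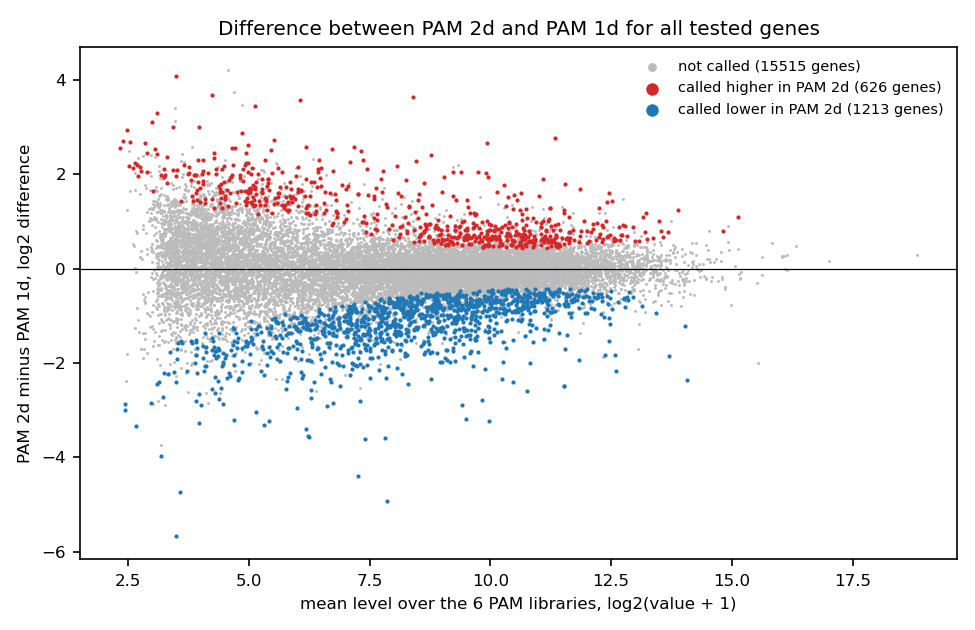
Log2 difference of PAM 2d minus PAM 1d (vertical axis) against the mean level of each of the 17354 genes tested (horizontal axis, log2 of scaled value + 1); red points are the 626 genes that rose, blue points the 1213 that fell at an adjusted p under 0.05, and grey points all others. Falls outnumber rises and reach lower than the rises reach high.

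Cell cycle genes fell as groups. Of 46 genes of DNA replication and S phase, 33 fell, none rose and 45 had a log2 difference below 0, with a median of -1.10 beside -0.02 over all genes. Of 41 genes of mitosis and the spindle, 38 fell, none rose and all 41 were below 0, with a median of -1.30. The lines had the same order for both lists, from line CD1 (medians of -0.92 for replication and -0.98 for mitosis) over line WT2 (-1.11 and -1.40) to line 2 (-1.24 and -1.62). Summed over the mitosis list, scaled values were 53359 to 65841 in untreated organoids, 28608 to 43322 in PAM 1d and 11045 to 21264 in PAM 2d, and these ranges do not overlap. The replication list summed to 55838 to 70766, 30941 to 41252 and 15103 to 23353. In bulk organoids, fewer dividing cells and less of these transcripts per cell cannot be told apart, here and for every cell type below. Without line WT2 the medians were -1.05 for replication and -1.29 for mitosis.

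Mcm4, a subunit of the helicase that opens DNA for replication, was at 1462, 945 and 916 in PAM 1d and at 475, 215 and 214 in PAM 2d, against 1747 to 2483 in untreated organoids. Every PAM 2d library was below every PAM 1d library, which in turn was below every untreated one, and the log2 difference was -1.95 (SE 0.14, adjusted p = 0.0198). Rrm2, which makes deoxynucleotides, went from 1309, 836 and 1002 to 474, 231 and 197 (log2 difference -1.89). Mcm5 and Uhrf1, a helicase subunit and a factor that keeps DNA methylation through replication, fell by 1.80 and 1.74 on the log2 scale. Among mitotic genes, the proliferation marker Mki67 was at 7547, 4598 and 4519 in PAM 1d and at 2959, 1382 and 1121 in PAM 2d (log2 difference -1.70, SE 0.15, adjusted p = 0.0198), with 8402 to 11723 in untreated organoids. Ccnb2, which encodes a cyclin that drives entry into mitosis, went from 559, 407 and 441 to 227, 122 and 129 (log2 difference -1.60). Hmmr, a spindle protein, and Ttk, a kinase of the spindle checkpoint, fell by 1.63 and 1.84. Within each group line CD1 had the highest value of Mcm4, Rrm2, Mki67 and Ccnb2.

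The promoters of these genes show which known cell cycle elements lie upstream of them. Sequences are from RefSeq (GRCm38.p6), which held a promoter for 38 of the 46 replication genes and 34 of the 41 mitosis genes, and the 250 bases before the start site were searched on both strands. The letters searched for the E2F element were TTTCCCGC, TTCCCGCC, TTTGGCGC and TTTCGCGC, and those for the CHR element, which the DREAM and B-MYB complexes bind, were TTTGAA and TTCGAA. An E2F match lay in 11 of 38 replication promoters and 1 of 34 mitosis promoters, beside 2.98% of all 27025 promoters and 5.31% of the 10804 promoters of tested genes. A CHR match lay in 11 of 34 mitosis promoters and 7 of 38 replication promoters, beside 17.4% of all and 12.7% of those of tested genes. The letters CCAAT were in 26 of 34 mitosis and 24 of 38 replication promoters, beside 34.5% and 36.1%. Each example below shows the match in capitals with the bases around it, 2 replication genes with an E2F match (Mcm5, chr8:75109330-75109397, plus strand, where matches on both strands overlap, and Uhrf1, chr17:56303259-56303326, plus strand) and 2 mitosis genes with a CHR match (Mki67, chr7:135716442-135716507, minus strand, with 2 matches, and Ccnb2, chr9:70421686-70421751, minus strand). A match is a description of the sequence and shows no binding.
Mcm5: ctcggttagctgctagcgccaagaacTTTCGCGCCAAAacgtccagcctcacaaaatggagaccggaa
Uhrf1: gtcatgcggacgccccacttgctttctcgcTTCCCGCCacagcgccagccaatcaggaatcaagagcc
Mki67: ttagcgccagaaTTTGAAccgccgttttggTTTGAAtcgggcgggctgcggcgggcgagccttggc
Ccnb2: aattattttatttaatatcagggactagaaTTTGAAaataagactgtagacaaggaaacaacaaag

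**Figure D2:**
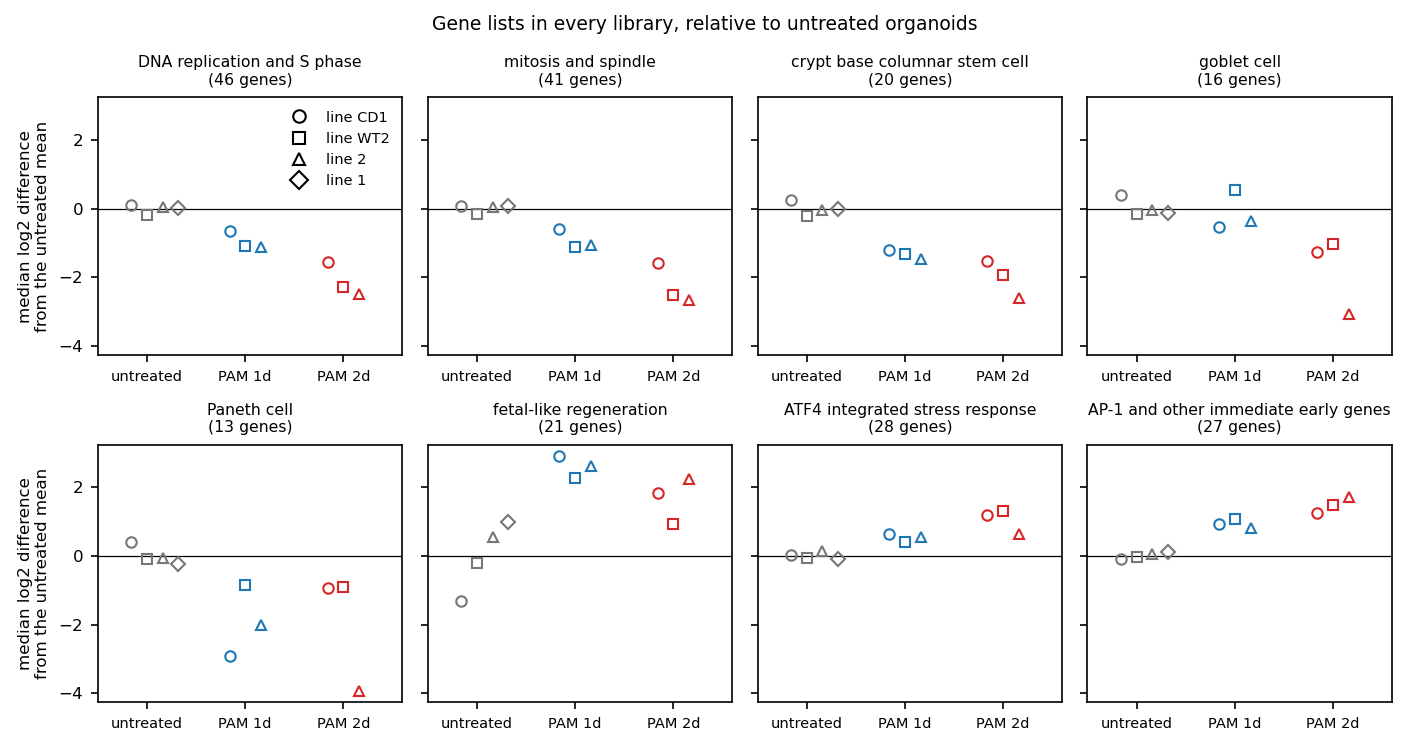
Median log2 difference from the untreated mean over the genes of 8 lists (vertical axis) in every untreated, PAM 1d and PAM 2d library, with a marker shape for each organoid line as labelled. The mitosis list lies at -0.59 to -1.13 in PAM 1d and at -1.59 to -2.67 in PAM 2d, while the Paneth list overlaps between the groups.

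Most genes that control G1, the phase before replication, were lower in PAM 2d. Of 22, 8 fell and none rose, beside 6.99% and 3.61% of all genes. The median was -0.57 (-0.62 without line WT2), with 16 genes below 0 and 6 above. In PAM 2d 12 lay wholly lower and 1 wholly higher, beside 16.9% and 16.2% of all genes. Ccnd2, which encodes cyclin D2, was at 48887, 32303 and 37948 in PAM 1d and at 13446, 6675 and 4863 in PAM 2d (log2 difference -2.37, SE 0.23, adjusted p = 0.0198). Untreated organoids had 10559 to 16417, so that PAM 1d lay above the untreated range in all 3 lines and PAM 2d lay within it in line CD1 and below it in the others. Ccnd1, for cyclin D1, was at 14236, 6940 and 8933 in PAM 1d and at 6281, 1468 and 4016 in PAM 2d, with 3778 to 4680 in untreated organoids (log2 difference -1.52, adjusted p = 0.0311). It was above the untreated range in all PAM 1d libraries, while in PAM 2d it was above it in line CD1, below it in line WT2 and within it in line 2. Ccne1 and the factor E2f1, which act at the entry to S phase, fell by 1.69 and 1.63. The inhibitor Cdkn1a, a p53 target, was not called, at 5283, 5772 and 4598 in PAM 1d and 6539, 8525 and 5428 in PAM 2d, with 1744 to 2142 in untreated organoids. Myc, which drives growth and ribosome synthesis, fell by 1.01 (adjusted p = 0.0332), from 3611, 3331 and 2975 to 2375, 1620 and 1143. The ribosome biogenesis list (25 genes) had a median of -0.11 and, besides Myc, Nolc1 fell by 0.69.

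The largest fall among the genes of the Hippo pathway, whose factors YAP and TAZ act through TEAD proteins, was that of Ctgf, a secreted matrix protein. It was at 1374, 641 and 239 in PAM 1d and at 110, 74 and 13 in PAM 2d, against 30 to 190 in untreated organoids (log2 difference -3.61, SE 0.23, adjusted p = 0.0198). All 3 PAM 2d libraries lay below all PAM 1d libraries. Ankrd1 also fell, from 122, 32 and 108 to 38, 10 and 31 (log2 difference -1.67, adjusted p = 0.0261). The other 10 of the 12 targets tested were not called, Cyr61 having 301, 191 and 248 in PAM 1d and 277, 311 and 426 in PAM 2d, and the list's median was -0.28 (-0.20 without line WT2). The TEAD letters GGAATG lay in 7 of the 9 promoters of this list found in RefSeq, beside 12.6% of all and 10.9% of those of tested genes. That of Ankrd1 (chr19:36119932-36119997, minus strand) is shown with the match in capitals.
Ankrd1: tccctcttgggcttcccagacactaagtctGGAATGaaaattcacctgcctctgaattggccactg

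Leading genes of the integrated stress response rose. Of 28 genes of the ATF4 list, 6 rose, none fell and 25 had a log2 difference above 0, with a median of 0.39 (0.24 without line WT2), beside 3.61% of all genes that rose. Atf4 itself was at 2620, 3903 and 3326 in PAM 1d, around the untreated range of 3260 to 3660, and at 7558, 13121 and 9584 in PAM 2d (log2 difference 1.60, SE 0.10, adjusted p = 0.0198). All 3 PAM 2d libraries were above all other libraries of the comparison. Its relative Atf5 went from 1760, 1968 and 2527 to 6341, 8400 and 5542 (log2 difference 1.69), with 831 to 1086 in untreated organoids. Ppp1r15a, which restores protein synthesis after the stress, went from 332, 420 and 389 to 663, 1238 and 1366 (1.45). Ddit3, which encodes the pro-apoptotic factor CHOP, rose by 0.88, from 404, 724 and 733 to 963, 1402 and 988 (adjusted p = 0.0432), and Cebpb rose by 1.02. Nupr1, a small nuclear stress protein, had the largest rise of the list, from 786, 980 and 1263 to 3562, 5165 and 16803 (log2 difference 2.77, SE 0.31, adjusted p = 0.0212), with 194 to 539 in untreated organoids.

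The amino acid branch of the same list moved less. Asns, for asparagine synthetase, was at 2977, 2787 and 3144 in PAM 1d and 4219, 4270 and 2852 in PAM 2d, and Psat1, of serine synthesis, at 3504, 2187 and 3013 and at 4903, 3357 and 2107. In both genes lines CD1 and WT2 were higher and line 2 lower in PAM 2d, and neither was called. The list's median was 0.74 in line CD1 and 0.62 in line WT2 but -0.17 in line 2. Slc7a11, the cystine importer, had 5901, 4640 and 5434 in PAM 1d and 7147, 10304 and 6941 in PAM 2d (log2 difference 0.59, adjusted p = 0.107), with 779 to 1206 in untreated organoids. Trib3, a target and inhibitor of ATF4, missed the threshold too (1.38, adjusted p = 0.0886). Of 20 aminoacyl-tRNA synthetases, which charge tRNAs with amino acids, Cars (0.74), Aars (0.61) and Mars (0.48) rose and none fell, with a median of 0.09. The C/EBP-ATF response element, searched as TGATGNAA, lay in 5 of 25 ATF4-list and 3 of 12 synthetase promoters found in RefSeq, beside 3.53% of all and 2.05% of those of tested genes. That of Nupr1 (chr7:126625543-126625610, minus strand) holds it on the other strand, in capitals below.
Nupr1: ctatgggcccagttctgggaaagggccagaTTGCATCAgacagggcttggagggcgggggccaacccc

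**Figure D3:**
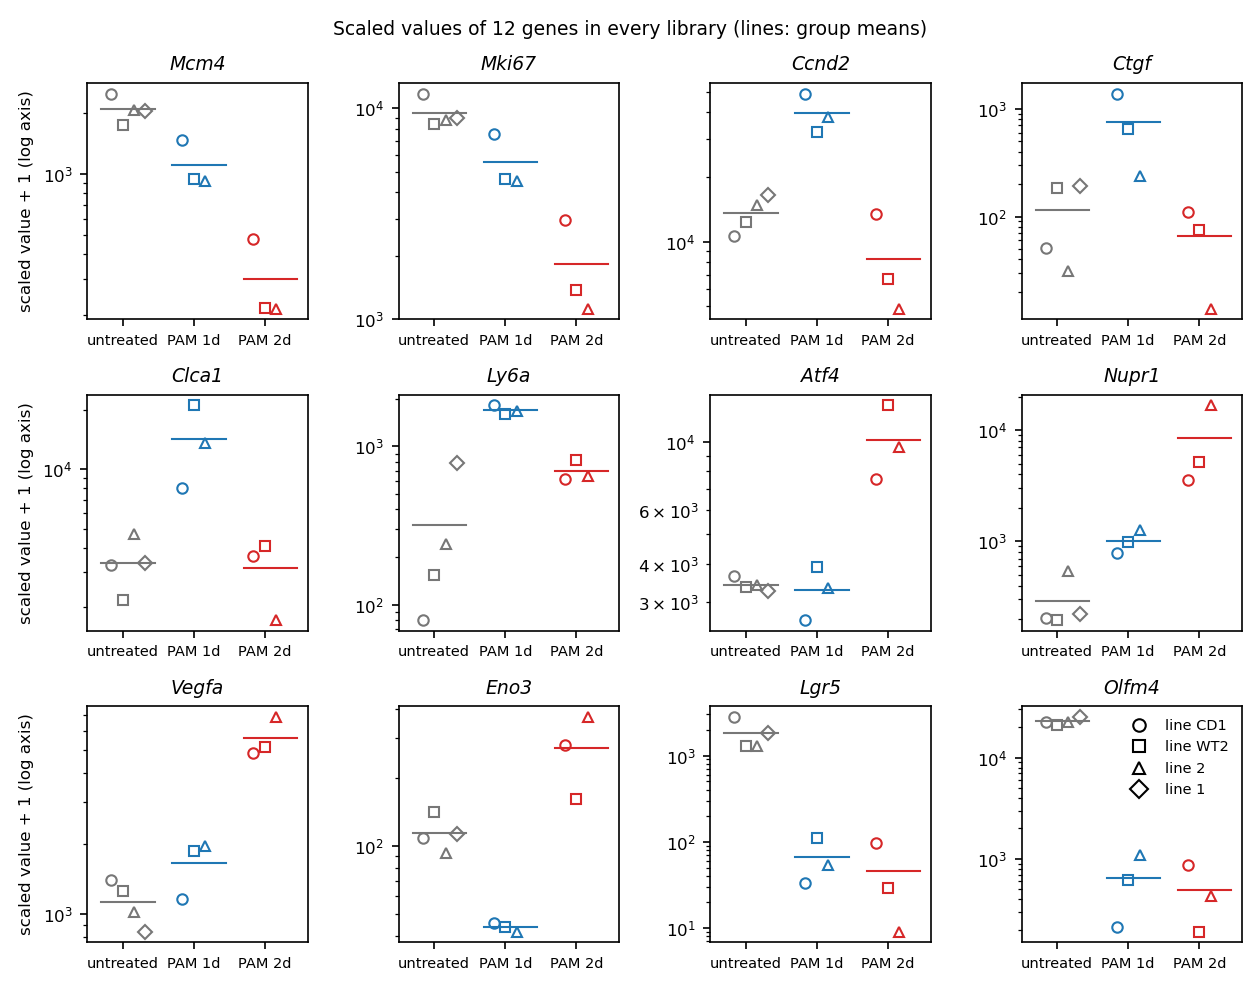
Scaled value + 1 of 12 genes (vertical axes, log scale) in every untreated, PAM 1d and PAM 2d library, with a marker shape for each organoid line as labelled and a horizontal line at each group mean. Mcm4 and Mki67 step down from untreated to PAM 1d to PAM 2d, Ccnd2, Ctgf, Clca1 and Ly6a are highest in PAM 1d, Atf4, Nupr1, Vegfa and Eno3 are highest in PAM 2d, and Lgr5 and Olfm4 overlap between the PAM groups.

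Immediate early genes, which cells induce within minutes of a stimulus, included more rises than falls. Of 27, 10 rose and 1 fell, with a median of 0.66 (0.62 without line WT2), and the median was above 0 in each line (0.25, 0.76 and 1.03). Atf3, a stress-induced factor of the ATF family, went from 257, 443 and 223 to 687, 2126 and 1248 (log2 difference 2.05, SE 0.22, adjusted p = 0.0207), with 83 to 106 in untreated organoids. Dusp1, a phosphatase that switches off MAP kinases, went from 426, 426 and 311 to 907, 3246 and 4966 (2.67, SE 0.53, adjusted p = 0.0423), least in line CD1. Jun, a subunit of the AP-1 factor, went from 806, 1136 and 803 to 1727, 3189 and 2810 (1.46), with 999 to 1305 in untreated organoids. Jun in PAM 1d lay below the untreated range in lines CD1 and 2 and within it in line WT2. Nr4a2 (1.36), Gadd45a (1.30), Dusp5 (0.95), Jund (0.88), Dusp4 (0.81), Maff (0.68) and Ier2 (0.66) rose as well. The classical members Fos (1129, 1003 and 957, then 1048, 1538 and 1378) and Egr1 (709, 684 and 512, then 621, 848 and 311) overlapped between the groups and were not called. Btg2, an antiproliferative p53 target, was the 1 member that fell (-0.79).

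The p53 targets were called in both directions, and the lists of oxidant defence held few calls. Of 23 p53 targets, 3 rose and 2 fell, beside 3.61% and 6.99% of all genes. Their median was -0.21 (-0.26 without line WT2). Of the 23, 3 lay wholly higher in PAM 2d and 9 wholly lower, beside 16.2% and 16.9% of all genes. In the fit of 18 libraries 4 p53 targets rose and 10 fell, beside 15.1% and 19.8% of all genes. Gdf15, a stress-induced secreted factor, went from 1965, 1638 and 2124 to 3206, 3712 and 7790 (log2 difference 1.25, adjusted p = 0.0365), with 310 to 570 in untreated organoids. Pmaip1, for the pro-apoptotic protein NOXA, rose by 0.98 and Plk3, a stress-activated kinase, by 0.73, whereas Ei24 and Zmat3 fell by 0.91 and 0.61. Of 29 genes of the NRF2, glutathione and thioredoxin list, Sqstm1 rose and Nfe2l2, which encodes NRF2, fell, with a median of -0.07. Sqstm1, for the autophagy receptor p62, went from 4893, 6867 and 7814 to 10771, 16603 and 16757 (log2 difference 1.17, SE 0.11, adjusted p = 0.0198). Nfe2l2 went from 7919, 8837 and 7752, above the untreated 6429 to 6987, to 6071, 5489 and 3752, below it (-0.71, adjusted p = 0.0485). Hmox1, the heme-degrading enzyme that oxidants induce, had 383, 367 and 485 in PAM 1d and 492, 512 and 1198 in PAM 2d, with 66 to 155 in untreated organoids. The PAM groups did not overlap for Hmox1, but its adjusted p was 0.0848 (log2 difference 0.71). None of 14 peroxidases, peroxiredoxins and dismutases was called. Their median was -0.33, with line medians of -0.14, -0.31 and -0.65. Of the 14, 7 lay wholly lower in PAM 2d and 0 wholly higher, beside 16.9% and 16.2% of all genes. In the fit of 18 libraries 9 of them fell and 0 rose, beside 19.8% and 15.1% of all genes. None was called of 12 genes of iron and ferroptosis (median 0.13) or of 19 apoptosis regulators (-0.17). Of 16 heat shock genes Ahsa1, a co-chaperone, fell by 0.58 (median 0.09), and of 8 metallothionein and zinc transport genes the importer Slc39a10 fell by 1.21 (median 0.20). Pycard, an adaptor of the inflammasome, was not called (log2 difference -0.64, adjusted p = 0.401).

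Some genes of glycolysis and of the response to low oxygen rose. Of 29, 5 rose and none fell, with a median of 0.41 (0.30 without line WT2). Vegfa, for the angiogenic factor, was at 1158, 1853 and 1956 in PAM 1d and at 4848, 5159 and 6908 in PAM 2d, against 844 to 1394 in untreated organoids (log2 difference 1.79, SE 0.14, adjusted p = 0.0198). Ldha, which makes lactate, went from 18190, 21937 and 25776 to 33926, 42550 and 37902 (0.80), and Tpi1, Pfkp and the collagen hydroxylase gene P4ha2 rose by 0.67, 0.66 and 0.96. Eno3, an enolase outside this list, went from 45, 43 and 41 to 278, 160 and 370 (2.54, SE 0.28, adjusted p = 0.0207). Of the 29, 10 lay wholly higher in PAM 2d and 1 wholly lower, beside 16.2% and 16.9% of all genes. In the fit of 18 libraries 14 of them rose, beside 15.1% of all genes. Car9 and Pdk1, both HIF targets, overlapped between the groups and were not called. Car9 had 1405, 2687 and 2323 in PAM 1d and 2030, 3247 and 1223 in PAM 2d, and Pdk1 had 787, 1510 and 1099 and then 1378, 1689 and 360. In lipid metabolism, Pmvk (0.86), Cyp51 (0.65) and Fdft1 (0.58) of cholesterol synthesis rose and Ebp fell by 0.97, among 23 genes with a median of 0.16. None of 10 fatty acid synthesis genes was called (median -0.31). Of 17 PPAR targets, Cidec (1.16) and Creb3l3 (1.01) rose and Angptl4 (-1.88) and Cyp4a10 (-2.21) fell, the last at 11, 89 and 7 in PAM 1d and 2, 28 and 0 in PAM 2d. Pparg itself differed by -0.09 (adjusted p = 0.565). Sat1, which breaks down polyamines, rose by 1.29, from 2780, 3248 and 3393 to 5811, 7620 and 10212.

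Goblet cell genes included large falls. Of 16, 7 fell and none rose, with a median of -1.51 (-1.64 without line WT2). In PAM 2d 12 of them lay wholly lower, beside 16.9% of all genes. Clca1, which encodes a protein secreted with mucus, was at 8074, 21164 and 13686 in PAM 1d and at 3613, 4083 and 1713 in PAM 2d (log2 difference -2.18, SE 0.35, adjusted p = 0.0318). With 2171 to 4668 in untreated organoids, it was above the untreated range in all PAM 1d libraries. Tff3, a trefoil peptide that protects the mucosa, went from 9253, 11857 and 13874 to 4183, 4546 and 1772, against 6486 to 8265 in untreated organoids (-1.83, adjusted p = 0.0426). Zg16, which binds bacteria in mucus, went from 3800, 10085 and 9641 to 2115, 2213 and 1391 (-1.94), and Agr2, which folds mucin, from 1956, 4860 and 2141 to 847, 1206 and 149 (-2.35, adjusted p = 0.0455). The mucin Muc2 itself, at 6032, 22175 and 7229 and then 4359, 5086 and 902, missed the threshold (-1.86, adjusted p = 0.0636). Spdef and Atoh1, factors that set the goblet and secretory fates, were not called, at 203, 414 and 193 and then 186, 170 and 47 for Spdef. Bcas1 went from 544, 998 and 892 to 90, 114 and 26 (-3.58). Its antisense genes Bcas1os1 and Bcas1os2 fell by 3.57 and 3.27, and since strand is not stated for the counting, reads of the 3 genes cannot be told apart. The list's median differed among lines, at -0.56 in line CD1, -1.65 in line WT2 and -2.60 in line 2.

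Other secretory and absorptive genes did not move together. Of 13 Paneth genes tested none was called, and the list's median was 2.11 in line CD1, 0.19 in line WT2 and -1.67 in line 2, a spread wider than the overall difference of 0.31. Lyz1, for lysozyme, was at 2464, 10716 and 4220 in PAM 1d and at 9915, 11662 and 2813 in PAM 2d, against 15122 to 20706 in untreated organoids. Relative to the untreated mean, the list stood at -2.91 in PAM 1d of line CD1 and at -3.92 in PAM 2d of line 2, the lowest libraries of the comparison. Of 36 enterocyte genes 1 rose and 1, the peptide transporter gene Slc15a1, fell by 1.68, with a median of -0.28 and line medians of 0.70, -0.18 and -0.83. Of 18 enteroendocrine genes, Insm1, a factor of endocrine differentiation, went from 31, 116 and 101 to 155, 368 and 252 (log2 difference 1.75, adjusted p = 0.0261), against 267 to 334 in untreated organoids, and the peptide gene Nts fell by 1.59. Of 8 tuft cell genes Il17rb rose by 1.61. Dll1, the Notch ligand of secretory precursors, went from 779, 1102 and 1463 to 2636, 2180 and 2393 (1.15, adjusted p = 0.0381), with 1640 to 1988 in untreated organoids, while the ligand Jag2 fell by 1.38. Without line WT2 Dll1 and Insm1 had log2 differences of 1.23 and 1.80.

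Stem cell genes fell in part. Of 20 crypt base columnar genes 6 fell and none rose, beside 6.99% and 3.61% of all genes. The median was -0.76 (-0.66 without line WT2), and all 20 were below 0 in the average of the 3 lines. Line medians were -0.12 in line CD1, -0.98 in line WT2 and -1.05 in line 2. The genes that fell were Cd44 (-0.95), Rnf43 (-0.90), Lrig1 (-0.88), Ephb3 (-0.87), Sox9 (-0.84) and Soat1 (-0.66). Cd44, an adhesion receptor and Wnt target, went from 3265, 2988 and 3003 to 1633, 1429 and 1740, with 2325 to 2913 in untreated organoids. Lgr4, a receptor for R-spondin, went from 6302, 5903 and 5045, near the untreated 5557 to 5863, to 3623, 2818 and 2567 (-0.95, adjusted p = 0.0207). The defining genes were far below untreated organoids in both PAM groups, and the groups overlapped. Lgr5 was at 32, 110 and 53 in PAM 1d and at 96, 28 and 8 in PAM 2d, against 1281 to 2822 in untreated organoids (log2 difference -0.99, SE 0.82, adjusted p = 0.434). Olfm4 was at 212, 612 and 1098 and at 866, 190 and 432, against 20867 to 25431 (-0.33, adjusted p = 0.775). Axin2, a feedback target of Wnt, was at 536, 811 and 642 and at 822, 389 and 107, against 4158 to 5951 (-1.01, adjusted p = 0.275). In each of these 3 genes line CD1 was higher and line WT2 and line 2 lower in PAM 2d. Of 11 Wnt feedback genes, Rnf43 and Lgr4 fell, with a median of -0.87 that was -0.01 in line CD1, -0.75 in line WT2 and -1.60 in line 2.

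**Figure D4:**
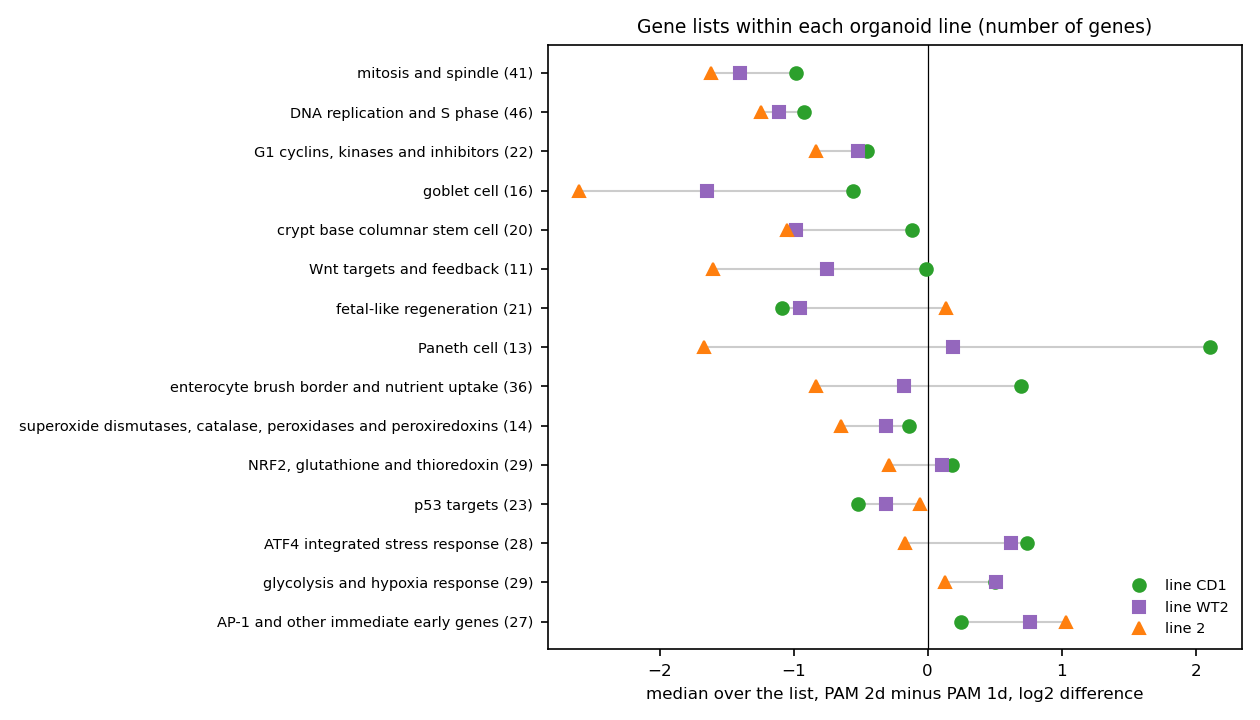
Median log2 difference of PAM 2d minus PAM 1d (horizontal axis) over the genes of 15 lists, with a marker for each organoid line and the number of genes tested in parentheses. The mitosis and replication lists lie below 0 in all 3 lines, while the Paneth list runs from -1.67 in line 2 to 2.11 in line CD1.

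Regeneration genes of the fetal-like list were lower in PAM 2d, but not in every line. Of 21, 7 fell and 1 rose, with a median of -0.54 (-0.57 without line WT2), made of -1.09 in line CD1, -0.95 in line WT2 and 0.14 in line 2. Ly6a, which encodes the surface protein Sca-1, went from 1813, 1603 and 1674 to 620, 822 and 652 (log2 difference -1.29, SE 0.14, adjusted p = 0.0207), with 79 to 788 in untreated organoids. Msln, for mesothelin, went from 33976, 16367 and 29305 to 10589, 2326 and 13842 (-1.86, adjusted p = 0.0358), and Krt4, a keratin of stratified epithelium, from 3878, 2387 and 1474 to 941, 107 and 415 (-2.78). Msln and Krt4 were lowest in line WT2 in PAM 2d, and without that line they differed by -1.38 and -1.93. Dsg3, a desmosomal cadherin, went from 248, 188 and 219 to 58, 66 and 90 (-1.62), with 2 to 20 in untreated organoids. Il33 (-1.52) and Anxa1 (-0.90) fell. Sprr1a rose by 0.51, but its groups overlapped and it was not called in the fit of 18 libraries. Clu was not called, at 15085, 17201 and 14058 in PAM 1d and 6534, 1753 and 9065 in PAM 2d (-1.71, adjusted p = 0.0863). Of 11 EGF family genes, Areg, for the ligand amphiregulin, went from 4362, 5371 and 6387 to 5933, 10843 and 10168 (0.71, adjusted p = 0.0423), and its groups overlapped.

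Genes of inflammation changed in both directions. Of 27, 4 rose and 4 fell, with a median of -0.06 (0.15 without line WT2). Nos2, for inducible nitric oxide synthase, went from 117, 367 and 1718 to 567, 1392 and 6805 (log2 difference 2.06, SE 0.12, adjusted p = 0.0198), each line rising from its own level while the groups overlapped. Cxcl10, an interferon-induced chemokine, went from 2, 15 and 22 to 12, 158 and 107 (2.55), and Lcn2, which binds bacterial iron carriers, from 1, 3 and 3 to 13, 17 and 10 (2.15), both low. Lcn2 passed the filter on low values only through PAM 2d, where it was high. Nfkbia, the inhibitor of NF-kB, rose by 0.87. The oxidase gene Duox2 and its maturation factor Duoxa2, which release hydrogen peroxide at the cell surface, fell by 0.91 and 1.03. The cytokine gene Il18 (-0.92) and the interleukin 1 receptor gene Il1r1 (-2.22) also fell. Of 29 interferon-stimulated genes Tap1 (-1.20), Oas1a (-1.01) and Irf7 (-0.78) fell and none rose, with a median of -0.07. These counts are near the 6.99% and 3.61% of all genes, and 13 of the 29 were above 0 and 16 below.

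Several of the largest differences lay outside these lists. Of genes with a mean of 50 or more in either group, the largest rises were in genes that were low in PAM 1d, with Igfbp5, which binds insulin-like growth factors, going from 4, 1 and 1 to 185, 10 and 47 (log2 difference 4.09, adjusted p = 0.0287) and Pmp22, a membrane protein, from 8, 3 and 3 to 37, 34 and 226 (3.68). At such values the fitted difference depends on the added count of 1. Igfbp5 and Pmp22 also passed the filter on low values only through PAM 2d, the group where they were high. Ranbp3l, an export factor of SMAD proteins, went from 212, 64 and 61 to 2141, 339 and 2298 (3.64, adjusted p = 0.0282), and Hs3st5, a heparan sulfate sulfotransferase, from 10, 11 and 8 to 89, 66 and 251 (3.44). The largest fall was that of Teddm3, from 97, 27 and 190 to 3, 0 and 0, and thus against values near 0. Teddm3 passed the filter only through PAM 1d. Sptssb, a subunit of the enzyme that starts sphingolipid synthesis, went from 2946, 2712 and 3651 to 555, 215 and 287, against 167 to 670 in untreated organoids (-3.24, adjusted p = 0.0198). Mup20, a major urinary protein, went from 348, 1107 and 894 to 25, 27 and 49 (-4.40), and Capn13, a calpain protease, from 333, 152 and 324 to 42, 14 and 15 (-3.55). Mup20 belongs to a family of near-identical genes, so that its count is uncertain. Cyp1b1, a target of the aryl hydrocarbon receptor, went from 112, 48 and 41 to 0, 2 and 3, and Ahrr, a repressor of that receptor, fell by 1.59. Like Teddm3, Cyp1b1 passed the filter only through PAM 1d. Mcpt2, known as a mast cell protease, went from 1436, 743 and 1963 to 34, 10 and 192 (-4.93, adjusted p = 0.0207). Of 9 other mast cell genes looked up after seeing this, Cpa3, Ms4a2 and Fcer1a were at 0 in all untreated and PAM libraries and Tpsb2 was at 2 or less. The proteases Mcpt1 (45, 35 and 21, then 0, 0 and 14), Mcpt4 (23, 16 and 19, then 1, 0 and 3) and Cma1 (13, 9 and 8, then 1, 2 and 5) were low and lower in PAM 2d than in PAM 1d of the same line. Kit had 102, 399 and 166 and then 163, 163 and 59, and Hdc 3, 35 and 8 and then 4, 4 and 17. Without line WT2 the log2 differences of Ranbp3l, Sptssb, Mup20, Capn13 and Mcpt2 were 4.27, -3.04, -3.95, -3.65 and -4.35.

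Set against the untreated mean, rises and falls were not alike in position. Of the 626 genes that rose, PAM 1d was nearer to untreated organoids for 528 and PAM 2d for 98 (15.7%), and the untreated mean lay below both PAM means for 366. Of the 1213 that fell, PAM 1d was nearer for 801 and PAM 2d for 412 (34.0%). The untreated mean lay above both PAM means for 618 of these, as for Mcm4 and Mki67, between them for 383 and below both for 212. These are counts of means with no test, and the called genes were chosen on the PAM values.

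The same change of start day was made with indirect CAP, in other libraries of the same 3 lines. There 1668 of 17987 genes rose (9.27%) and 2577 fell (14.3%) from day 1 to day 2. Of the 610 genes that rose with PAM and were tested in both, 460 also rose with indirect CAP, which is 75.4% of the PAM genes and 27.9% of the 1648 indirect CAP genes, and 1 fell. Of the 1203 that fell with PAM, 880 also fell with indirect CAP (73.2% and 35.0% of each list) and none rose. Over the PAM genes, which were chosen on PAM values, the median was 0.995 with PAM and 0.549 with indirect CAP for rises, and -1.05 and -0.554 for falls. The difference between both day contrasts was tested directly, over 18744 genes, and no gene was called (0.0%), with 2182 at an unadjusted p under 0.05 and a smallest adjusted p of 0.077. Without line 2, 78 genes were called. Mitosis genes had medians of -1.30 with PAM and -1.06 with indirect CAP, replication genes -1.10 and -0.78, goblet genes -1.51 and -0.48, and the fetal-like list -0.54 and 0.32. Dsg3 was an example with unlike values, at -1.62 with PAM and 0.37 with indirect CAP, and Nupr1 of like values, at 2.77 and 2.76. For neither gene did the 2 contrasts differ at the adjusted threshold.

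**Figure D5:**
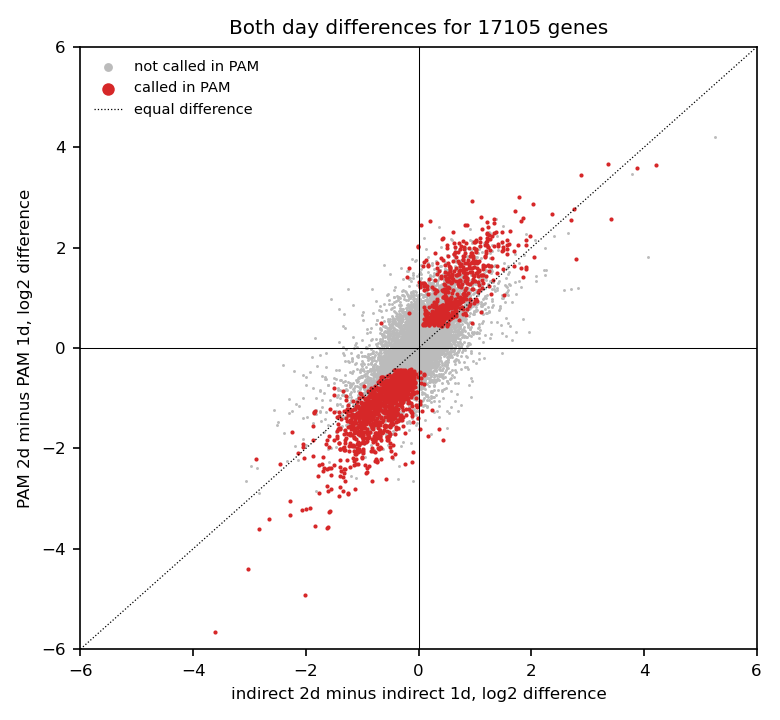
Log2 difference from day 1 to day 2 with PAM (vertical axis) against that with indirect CAP (horizontal axis), for 17105 genes tested in both, with genes called in the PAM comparison in red and a dotted line of equal difference. The 2 contrasts share the organoid lines but no library, and most called genes lie in the same quadrant with smaller values on the indirect CAP axis.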

How the data were processed

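RNA of duodenal organoids was sequenced as paired reads of 100 bases. According to the study's methods and the submitters' processing notes, the authors trimmed reads with Trimmomatic 0.36, aligned them to the mouse genome GRCm38 with STAR 2.5.3a and counted them per Ensembl gene with HTSeq 0.9.1, and used edgeR for their own comparisons. The deposited values are scores, apparently read counts which the authors scaled to 20 M per library and rounded to whole numbers. They were not treated as counts here. All 22 libraries summed to 20007540 to 20016513.

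The 6 PAM libraries were fitted with limma 3.58.1 (R 4.3.3), a moderated test with a trend on log2(value + 1), with the organoid line as a block, keeping genes that reached 10 in 3 or more of the fitted libraries. Each line is 1 mouse used in both groups, which is where the pairing comes from. Deviations from the group mean correlated between same-line libraries at 0.448 (line 2), 0.199 (CD1) and 0.575 (WT2), and between lines at -0.528 to 0.089. The interaction with indirect CAP was fitted likewise over 12 libraries. In data made with known changes from these means, 200 of 200 genes changed by 2 on the log2 scale, a larger size than the median call, were recovered with 8 false calls for the PAM comparison and 200 with 5 for the interaction. The made data gave every gene the same added spread between and within lines, and changed only genes well above the filter. Real genes had unequal spreads, so these counts check the fitting steps and give no error rate for the real calls.

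Genes were named by a rule: the 12 largest rises and falls among called genes with a mean of 50 or more, up to 4 called members of each of 42 lists, and 12 genes of the study. The members and lists were chosen with earlier results of these data known, and further list members in the text were chosen after their values were seen. Some list members are not reported here. Other scalings, filters, added counts and lines left out were tried.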

Additional observations from a re-analysis of the deposited data

Results flagged for a closer look

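Among the 122 genes named by the rule, 9 had 1 untreated library far from the other 3. Chance gives about 1 such gene in 20 tested, so that several of the 9 may be chance. In the untreated library labelled CD1, a label that the Kdm5d values put in doubt, Mki67 was at 11723 (next 8959), Axin2 at 5951 (next 4349), Bcas1 at 379 (next 201) and Bcas1os2 at 26 (next 14). In that of line 1, which was given no PAM, E2f1 was at 451 (next 388), Oas1f, an oligoadenylate synthetase gene, at 125 (next 72) and Cyp1b1 at 20 (next 3), each the highest, while Tpi1 was the lowest at 11126 (next 13346). In that of line 2, Nupr1 was at 539 (next 219). For Mki67, E2f1, Axin2 and Nupr1 both PAM groups lay wholly outside the untreated range with that library included. The PAM 2d against PAM 1d values use no untreated library.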

How the results depend on the processing

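The number of calls depended strongly on the settings. No gene was called, 0 higher and 0 lower, in the fit with no replicate block, without the filter on low values (6890 at an unadjusted p under 0.05), without the trend in the variance (5350), at an adjusted p under 0.01 with a log2 difference of 1, and without line WT2, and the cause was not tested. Over the 3 fits that left out 1 line each, rises ran from 0 to 799 and falls from 0 to 1375. With all 18 treated libraries 2895 rose and 3796 fell, and leaving out a line there, which was added after seeing the data, gave 2204 rises and 3030 falls without CD1, 869 and 1691 without WT2, and 2195 and 2781 without 2. Quantile normalization (864 and 1122), median-of-ratios scaling (692 and 1181) and an added count of 10 (703 and 1307) kept 1654, 1773 and 1830 of the 1839 calls, and the share of rises among calls went from 34.0% to at most 43.5%. The pairing by line held in every fit but 1. The test of PAM against indirect CAP called 2 genes with 18 libraries, 1 with quantile normalization, 0 in the other settings, and 0 to 78 when 1 line was left out, the 78 without line 2. All 122 named genes kept their direction under the settings that kept all 3 lines. That was fixed in advance for the fits without block, filter or trend, at the stricter threshold and with 18 libraries. These fits take the same group means, so only the other scalings and the added count of 10 could have changed a direction. With a line left out, in both fits, 4 uncalled genes turned: Cd68 (-0.34) ran from -0.69 to 0.0, the latter without CD1; Mptx1, a Paneth gene (0.71), from -0.06 without CD1 to 1.56; Olfm4 (-0.33) from -1.51 to 0.34 without WT2, with 0.17 without 2; and Pycard (-0.64) from -1.19 to 0.11 without 2. With 3 lines and calls near the threshold, a gene that was not called may still differ.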

Other observations

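Other gene groups had few called members, to be set beside 3.61% of all genes that rose and 6.99% that fell. For lists of this size, 1 called member says little about the group. Of 23 genes of the unfolded protein response in the endoplasmic reticulum, Dnajb9, a chaperone of that compartment, rose by 0.90, while Sdf2l1 and Ern2, a stress sensor of mucus-producing cells, fell by 0.82 and 1.34, with a median of -0.04. Of 22 lysosome and autophagy genes, Ulk1, a kinase that starts autophagy, and Wipi1 fell by 1.01 and 1.39 (median 0.14), beside the rise of Sqstm1 given above. Of 15 intestinal transcription factors Gata5 fell by 0.65 (median -0.06), and Cdx2, at 2242, 2718 and 2249 in PAM 1d and 2337, 1909 and 1292 in PAM 2d, was not called. Of 14 keratin and desmosome genes Pkp1 fell by 0.82 (median -0.19). Of 6 genes of the aryl hydrocarbon receptor Cyp1b1 and Ahrr fell (median -0.62), and Cyp1a1, at 704, 159 and 111 and then 124, 35 and 162, was not called. Of 9 Notch pathway genes Dll1 rose and Jag2 fell (median -0.28), and of 9 polyamine genes Sat1 rose (median -0.13). None of these was called without line WT2.

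Across the 17354 genes, the differences of the 3 lines correlated at 0.611 (CD1 and WT2), 0.412 (CD1 and 2) and 0.664 (WT2 and 2), and the PAM and indirect CAP differences at 0.757 over 17105 genes. Genes are not independent replicates, and the latter shares the organoid lines, so that these are descriptions with no test. A log2 difference of 1 or more in either direction was found for 11.0% of genes in line CD1, 18.1% in line WT2 and 19.9% in line 2.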
